A study of Mus musculus with 12 samples.

Results

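The 10 genes described here mark or drive the switch between an epithelial and a mesenchymal cell state. Cdh1 and Epcam are epithelial genes, Cdh2, Vim and Fn1 are mesenchymal genes, and Snai1, Snai2, Twist1, Zeb1 and Zeb2 encode transcription factors. They were taken by symbol from a table of 54537 mouse genes, and all 10 were among the 16289 genes tested, those with at least 1 FPKM in at least 2 of 12 libraries. FPKM, fragments per kilobase of transcript scaled to the library's mapped fragments, is a level per length, so levels of different genes can be set side by side. The libraries held poly(A) RNA of mouse embryonic stem (ES) cells, cultured lines that can form all tissues of the embryo, and of embryoid bodies, the floating aggregates in which such cells differentiate. The study as a whole compared ES cells lacking selected long noncoding RNAs with wild type. The groups used here are 1343KO at day 0 (2 libraries), WT at day 0 (2), 1343KO at day 8 (2), WT at day 8 (2), 1343KO at day 16 (2) and WT at day 16 (2). 1343KO is the line labelled WT+1343KO-a14, the only knockout line in these libraries, and the labels do not say what was removed. Day 0 cells grew on gelatin with serum and leukemia inhibitory factor (LIF). Day 8 and day 16 samples were embryoid bodies of each line kept in suspension, in medium with less serum and no LIF. The labels do not tell whether the 2 libraries of a group were grown separately, and the p-values reflect the spread between them, which can be purely technical.

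Epithelial cells hold to their neighbours through E-cadherin, the product of Cdh1, and through other junction proteins. During an epithelial to mesenchymal transition, as in gastrulation or the birth of the neural crest, zinc-finger factors of the Snail and Zeb families bind E-box sequences in epithelial gene promoters and repress them, Twist1 acts beside them, and cells take up N-cadherin (Cdh2), the intermediate filament vimentin (Vim) and a fibronectin matrix (Fn1). ES cells are themselves epithelial in character and rich in E-cadherin, and in embryoid bodies some of their descendants pass through this transition as mesoderm and its derivatives form.

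Promoter sequences are shown for an epithelial member, a Snail family member and a mesenchymal member, since Snail and Zeb factors are known to bind the E-box CACCTG, which reads CAGGTG on the other strand. They come from RefSeq on GRCm38.p6 and hold 250 bases before the transcription start site and 50 from it, read 5′ to 3′ on the strand of the gene, with each CACCTG or CAGGTG in capitals. The Epcam promoter is chr17:87635729-87636028, the Snai1 promoter chr2:167537945-167538244 and the Vim promoter chr2:13574061-13574360, all on the plus strand.
Epcam: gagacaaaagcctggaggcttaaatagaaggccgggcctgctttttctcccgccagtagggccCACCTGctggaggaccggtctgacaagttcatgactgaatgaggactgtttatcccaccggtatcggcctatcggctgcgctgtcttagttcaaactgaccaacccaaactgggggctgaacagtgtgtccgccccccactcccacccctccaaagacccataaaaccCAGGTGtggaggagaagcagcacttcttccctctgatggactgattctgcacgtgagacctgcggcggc
Snai1: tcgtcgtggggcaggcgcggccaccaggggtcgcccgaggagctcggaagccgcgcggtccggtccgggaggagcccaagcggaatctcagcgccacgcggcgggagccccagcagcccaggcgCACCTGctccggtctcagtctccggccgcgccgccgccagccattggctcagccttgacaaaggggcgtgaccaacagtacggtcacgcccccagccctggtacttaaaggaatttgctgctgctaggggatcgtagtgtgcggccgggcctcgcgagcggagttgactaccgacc
Vim: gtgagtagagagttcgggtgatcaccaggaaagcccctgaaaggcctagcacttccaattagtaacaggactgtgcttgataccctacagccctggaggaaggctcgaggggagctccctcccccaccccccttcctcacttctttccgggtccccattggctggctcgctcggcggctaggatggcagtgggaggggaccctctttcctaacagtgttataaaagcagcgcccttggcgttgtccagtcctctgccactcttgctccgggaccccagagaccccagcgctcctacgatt
The Epcam window holds 2 matches, whose first bases lie 187 and 19 bases before the start site. The Snai1 window holds 1, which begins 126 bases before the start site, and the Vim window holds none of these letters. Among all 32851 promoters of this length, 20.2% hold at least 1 match and 2.88% hold 2 or more. Matches are reported for 5 of the 10 genes only (Epcam, Snai1, Vim, Twist1 and Zeb2), and the windows of Twist1 and Zeb2 hold no match. Promoters of the other genes are not reported here, whether or not they hold a match. A match describes these letters only.

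The libraries held about 4825000 to 8057000 fragments each, estimated from the FPKM steps of low genes, and 12909 to 14069 genes reached 1 FPKM. Snhg3, the host gene of the SNORA73 small nucleolar RNAs named in the title of the study, stood between 0 and 1.57 FPKM in the 1343KO libraries, against 8.31 to 61.1 FPKM in the WT libraries. The summed FPKM of 8 ES cell markers (among them Pou5f1, Nanog and Esrrb) was 3699 to 3758 in 1343KO and 3176 to 3208 in WT at day 0, 2780 to 2861 in 1343KO and 181 to 216 in WT at day 8, and 2319 to 2323 in 1343KO and 125 to 137 in WT at day 16. Within 1343KO, 4 of these 8 markers (Klf4, Pou5f1, Zfp42 and Esrrb) were lower at day 8 than at day 0 (median of the 8, -0.40 log2), and 6 were lower at day 16 (median -0.61). Of all genes tested, 8.51% were lower in 1343KO at day 8 than at day 0, and 8.60% at day 16. The summed FPKM of 12 extraembryonic endoderm markers was 82.3 to 97.3 in 1343KO and 190 to 204 in WT at day 0, where 7 of the 12 were lower in 1343KO (median -1.42 log2), against 2.12% of all genes. The part of these markers in the day 0 differences of Epcam, Vim and Fn1 given below was not tested. At day 8 it was 176 to 191 in 1343KO and 2565 to 2601 in WT, and that of 8 fibroblast markers was 41.3 to 43.5 in 1343KO and 241 to 265 in WT. By day 16 the endoderm sum was 128 to 140 in 1343KO and 11630 to 11650 in WT, and the fibroblast sum was 51.2 to 55.4 in 1343KO and 3829 to 3948 in WT. Of the other marker lists, 7 endothelial genes summed to 35.8 to 39.7 FPKM in 1343KO and 90.6 to 94.5 in WT at day 8, 7 erythroid genes to 3.52 to 5.78 in 1343KO and 1152 to 1273 in WT, 6 trophoblast genes to 67.9 to 69.6 in 1343KO and 185.5 to 194 in WT, and 5 neural crest genes to 28.6 to 31.1 in 1343KO and 10.5 to 11.1 in WT. Tfap2c, among these 6 trophoblast genes, was higher in 1343KO at days 8 and 16, opposite to the sum. Markers of other lists also went against their sum. At day 16 the smooth muscle gene Cnn1 was higher in 1343KO and the neural gene Neurog2 lower. At day 8 the endothelial Pecam1 and the fibroblast Thy1 were higher in 1343KO, and the neural crest Tfap2a was lower. On the same day 7 cardiac genes summed to 6.50 to 9.97 FPKM in 1343KO and 39.3 to 40.4 in WT, 7 neural genes to 23.7 to 26.0 in 1343KO and 5.26 to 5.76 in WT, 7 macrophage genes to 8.21 to 11.97 in 1343KO and 25.2 to 27.6 in WT, and 5 surface epithelium genes to 2.60 to 2.85 in 1343KO and 1.52 to 2.34 in WT. The sum of 5 smooth muscle markers was 88.4 to 97.3 FPKM in 1343KO and 185 to 207 in WT at day 8, and 74.9 to 76.8 in 1343KO and 163 to 179 in WT at day 16. Also at day 16, the macrophage sum was 8.67 to 8.70 FPKM in 1343KO and 164 to 164.5 in WT, with 7 of 7 genes lower in 1343KO (median -3.82 log2), and the endothelial sum was 43.5 to 44.5 in 1343KO and 113 to 118 in WT, with 6 of 7 lower, where 24.1% of all genes were lower. The surface epithelium sum at day 16 was 5.03 to 5.72 FPKM in 1343KO and 30.3 to 33.4 in WT. The other day 16 sums were 22.9 to 28.95 FPKM in 1343KO and 31.7 to 48.9 in WT for erythroid genes, 42.55 to 46.4 in 1343KO and 27.5 to 42.8 in WT for cardiac genes, and 62.2 to 65.7 in 1343KO and 71.0 to 81.65 in WT for trophoblast genes. Neural genes summed to 32.5 to 34.5 FPKM in 1343KO and 10.1 to 10.5 in WT on that day, and neural crest genes to 33.0 to 35.1 in 1343KO and 13.1 to 13.6 in WT. At day 0 the neural sum was higher than on both later days in each line, at 98.7 to 99.8 FPKM in 1343KO and 114 to 120 in WT. Within 1343KO, 4 of the 6 neural genes tested were lower at day 8 than at day 0, where 8.51% of all genes were lower. The neural crest sum at day 0 was 22.1 to 22.6 FPKM in 1343KO and 13.9 to 18.1 in WT. The macrophage markers Lyz2 and Fcgr1, the erythroid Alas2 and the neural Neurog2 were at 0 in both 1343KO libraries of day 8, and the trophoblast Elf5 was at 0 in both WT libraries. The part of these cell types in the values of the 10 genes was not tested. None of the ES cell, endoderm or fibroblast markers was at 0 in both libraries of any group. In bulk RNA of mixed embryoid bodies, fewer cells of a type and less RNA per cell cannot be told apart.

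Most of the switch genes differed between the lines at day 8. There 9 of the 10 genes passed the test between 1343KO and WT, 2 higher (Cdh1 and Epcam) and 7 lower (all but Snai1 of the others), where 42.8% of all genes tested passed, 23.3% higher and 19.6% lower. At day 0 the number was 3, with Epcam and Fn1 higher and Vim lower in 1343KO, where 3.71% of all genes passed, 1.59% higher and 2.12% lower. At day 16 it was 6, with Epcam higher and Vim, Fn1, Snai2, Twist1 and Zeb2 lower, where 52.6% of all genes passed, 28.5% higher and 24.1% lower. The day 16 count is thus close to the share of all genes. The test is limma on log2(FPKM + 1), with p-values adjusted by Benjamini-Hochberg over all 16289 genes and a threshold of 0.05. Every log2 value given here is a difference on that scale, which understates the change of low genes. Since 2 libraries set against 2 allow no exact permutation p below 0.333, each call depends on a spread shared by all groups.

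**Figure D1:**
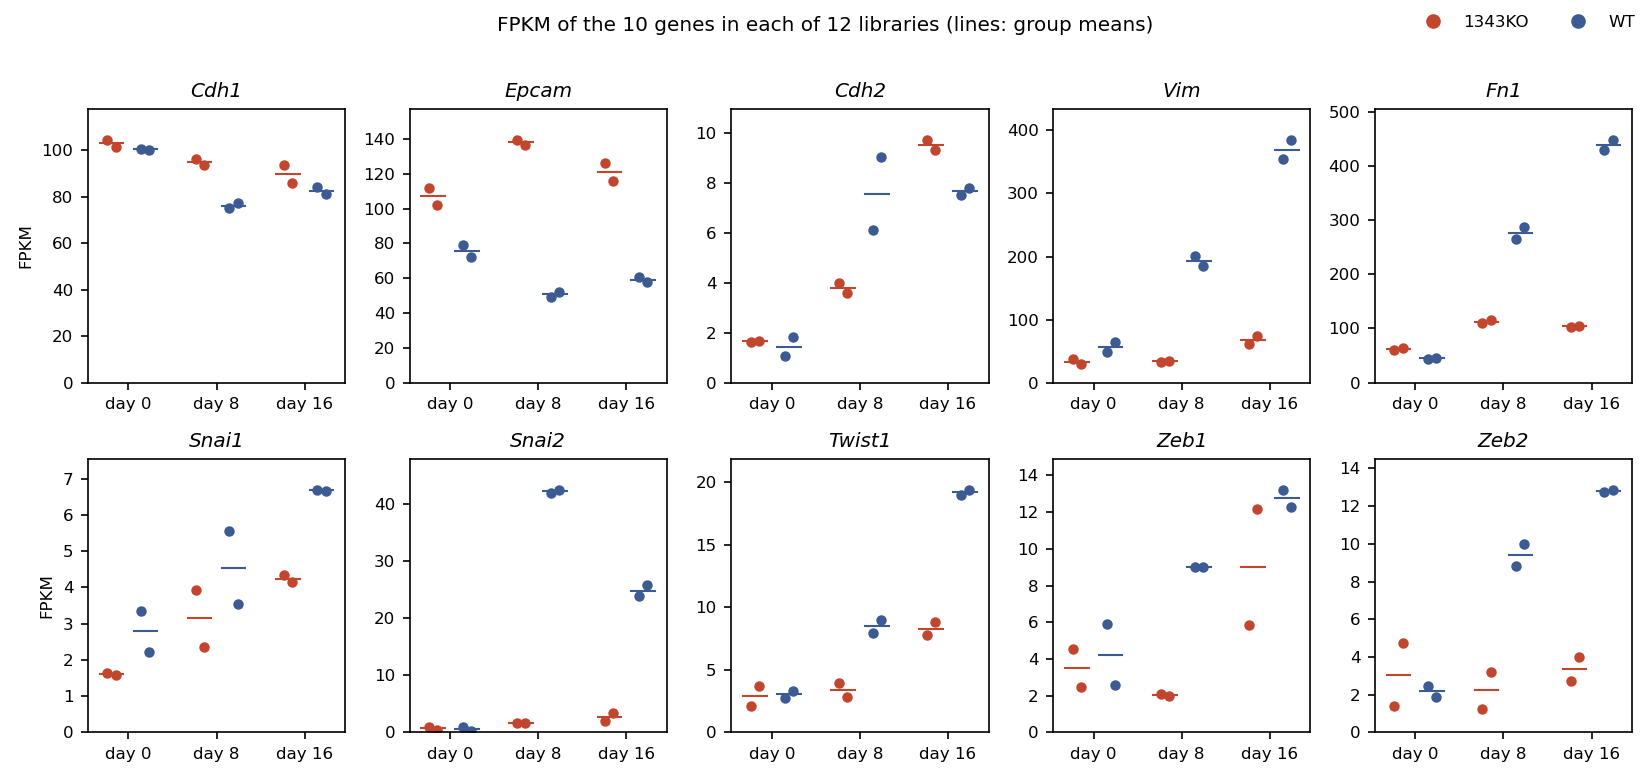
FPKM (vertical axis, from 0, with its own scale for each gene) of the 10 genes in each of the 12 libraries, at days 0, 8 and 16, with 1343KO in red to the left of WT in blue and short lines at the group means. The 2 WT libraries stand above the 2 1343KO libraries at days 8 and 16 for Vim, Fn1, Snai2, Twist1 and Zeb2, and below them for Epcam and Cdh1 at day 8.

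Cdh1 (ENSMUSG00000000303, chromosome 8, 106603351 to 106670246, plus strand, GRCm38) encodes E-cadherin, the calcium-dependent adhesion molecule of epithelial junctions. In 1343KO its level was 104.5 and 101 FPKM at day 0, 96.3 and 93.7 at day 8, and 93.5 and 85.7 at day 16. The WT level was 100.6 and 100.2 FPKM at day 0, 74.9 and 77.1 at day 8, and 84.1 and 80.97 at day 16. By its mean the gene was among the 3 highest of the 10 in all groups, and on each day both 1343KO libraries lay above both WT libraries. Cdh1 fell in WT by 0.40 log2 by day 8 (SE 0.06, limma adjusted p = 0.000555) and by 0.28 by day 16 (adjusted p = 0.00343). In 1343KO the day 8 change was -0.11 (adjusted p = 0.228), and at day 16 Cdh1 was lower than at day 0 by 0.20 (adjusted p = 0.0431). The lines differed at day 8, with Cdh1 higher in 1343KO by 0.32 log2 (SE 0.06, adjusted p = 0.00282), and the differences at day 0 (0.04, adjusted p = 0.858) and day 16 (0.12, adjusted p = 0.147) did not pass. When values were scaled to a fixed total per library, as in TPM, the day 8 difference was 0.12 with an adjusted p of 0.127. Over all 20 alternatives run for it, that adjusted p lay between 0.00245 and 0.127. The day 16 call within 1343KO ended in 12 alternatives, 11 of them with 1 library left out (adjusted p 0.00371 to 0.240 over all), whereas the day 8 change in 1343KO passed with median-of-ratios scaling (0.0407) and TPM scaling (0.0339), in a range of 0.0339 to 0.490.

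Chromosome 8, which carries Cdh1, was low as a whole in 1343KO relative to other chromosomes. Over its 214 genes that averaged 20 FPKM or more, the median difference, 1343KO minus WT, was -0.42 log2 at day 0, -0.16 at day 8 and 0.06 at day 16, where genes of other chromosomes had medians of 0.00, 0.25 and 0.40. The Cdh1 difference of 0.04 at day 0 thus lay well above the median of its chromosome, and 7.0% of those chromosome 8 genes had a difference at least as high. At day 8 the share was 24.3% and at day 16 it was 47.7%. The Cdh1 difference of 0.32 at day 8 was close to the median of 0.25 for genes of other chromosomes at such levels. Its difference of 0.12 at day 16 was below their median of 0.40. The part of the chromosome-wide shift in the Cdh1 values was not tested.

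Epcam (ENSMUSG00000045394, chromosome 17, 87635979 to 87651129, plus strand), whose promoter is shown above, encodes a surface adhesion glycoprotein of epithelial and ES cells. In 1343KO it stood at 112 and 102 FPKM at day 0, 139.5 and 136.5 at day 8, and 126 and 116 at day 16. WT libraries stood at 78.9 and 72.0 FPKM at day 0, 49.3 and 52.0 at day 8, and 60.6 and 57.7 at day 16. All 1343KO libraries lay above all WT libraries, on every day. At day 8 the mean was 138 ± 2.18 FPKM in 1343KO and 50.7 ± 1.87 FPKM in WT (SD, n = 2 each), 2.72-fold higher in 1343KO. The log2 difference was 0.50 at day 0 (SE 0.08, adjusted p = 0.00943), 1.43 at day 8 (adjusted p = 1.31e-06) and 1.02 at day 16 (adjusted p = 5.13e-06). From day 0 to day 8 the lines moved apart: Epcam rose in 1343KO by 0.36 log2 (adjusted p = 0.00911) and fell in WT by 0.56 (adjusted p = 0.000237), and the difference between these changes was 0.93 (SE 0.11, adjusted p = 0.000357). By day 16 the change from day 0 was 0.18 in 1343KO (adjusted p = 0.129), and Epcam was lower in WT by 0.35 (adjusted p = 0.00355). The day 0 difference ended without 1343KO replicate 1 of that day (adjusted p = 0.0593), without WT replicate 2 of that day (0.0803) and in a fit of the 4 day 0 libraries alone (0.201). Its adjusted p was 0.00624 to 0.201 over the 21 alternatives. The rise in 1343KO by day 8 ended without 1343KO day 0 replicate 2 (adjusted p = 0.0645) and with only the libraries compared (0.0622), in a range of 0.00675 to 0.0645.

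Cdh2 (ENSMUSG00000024304, chromosome 18, 16588877 to 16809246, minus strand) encodes N-cadherin, the adhesion molecule of mesenchymal, neural and heart muscle cells. In 1343KO it was at 1.62 and 1.68 FPKM at day 0, 4.0 and 3.60 at day 8, and 9.75 and 9.32 at day 16. The WT level was 1.05 and 1.84 FPKM at day 0, 6.13 and 9.04 at day 8, and 7.52 and 7.82 at day 16. The WT libraries were at their day 16 level by day 8, whereas the 1343KO libraries climbed over both intervals and at day 16 both lay above the WT pair. Cdh2 rose in WT by 1.81 log2 by day 8 (SE 0.21, adjusted p = 8.16e-05), and the step from day 8 to day 16 was 0.04 (adjusted p = 0.942). It rose in 1343KO by 0.86 by day 8 (adjusted p = 0.0176), by a further 1.13 by day 16 (adjusted p = 0.0499) and by 1.99 over the whole course (adjusted p = 0.000180), beside 1.84 in WT (adjusted p = 4.68e-05). The whole-course changes of the lines differed by 0.15 (SE 0.30, adjusted p = 0.730). The lines differed in when the gene changed: the difference of changes, 1343KO minus WT, was -0.95 from day 0 to day 8 (SE 0.30, adjusted p = 0.0397) and 1.10 from day 8 to day 16 (adjusted p = 0.0340). Between the lines Cdh2 was lower in 1343KO at day 8 by 0.82 log2 (adjusted p = 0.0114), and the day 16 difference was 0.28 (adjusted p = 0.293).

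These timing calls for Cdh2 rest on few libraries. The day 8 difference between the lines ended without WT replicate 2 of day 8 (adjusted p = 0.0941), without 1343KO replicate 2 of day 8 (0.0590) and with only the libraries compared (0.0699), within a range of 0.00416 to 0.0941 over the alternatives. Within 1343KO the rise by day 8 ended in 5 alternatives, in 4 of them by leaving out 1 of the 4 libraries compared (adjusted p 0.0133 to 0.0808 over all), and the later rise ended in 15 (0.0401 to 0.272). The difference of changes lost its call in 13 alternatives for the first interval, with adjusted p from 0.0206 to 0.132, and in 9 for the second, with adjusted p from 0.0247 to 0.112.

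Each library also gives the ratio of the cadherin levels. Cdh2 amounted to 1.56% and 1.66% of Cdh1 in 1343KO and 1.05% and 1.84% in WT at day 0, to 4.15% and 3.85% in 1343KO and 8.18% and 11.7% in WT at day 8, and to 10.4% and 10.9% in 1343KO and 8.95% and 9.66% in WT at day 16. Cdh2 thus reached at most 11.7% of the Cdh1 level in any library, with 1343KO below WT at day 8 and above it at day 16. Vim set against Epcam separated the lines on all days. Vim was 33.3% and 28.3% of Epcam in 1343KO and 62.2% and 89.7% in WT at day 0, and 24.0% and 25.5% in 1343KO and 406% and 354.5% in WT at day 8. At day 16 it was 48.9% and 64.5% in 1343KO and 584% and 668% in WT. No test was run on these ratios, which describe the same values as above.

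**Figure D2:**
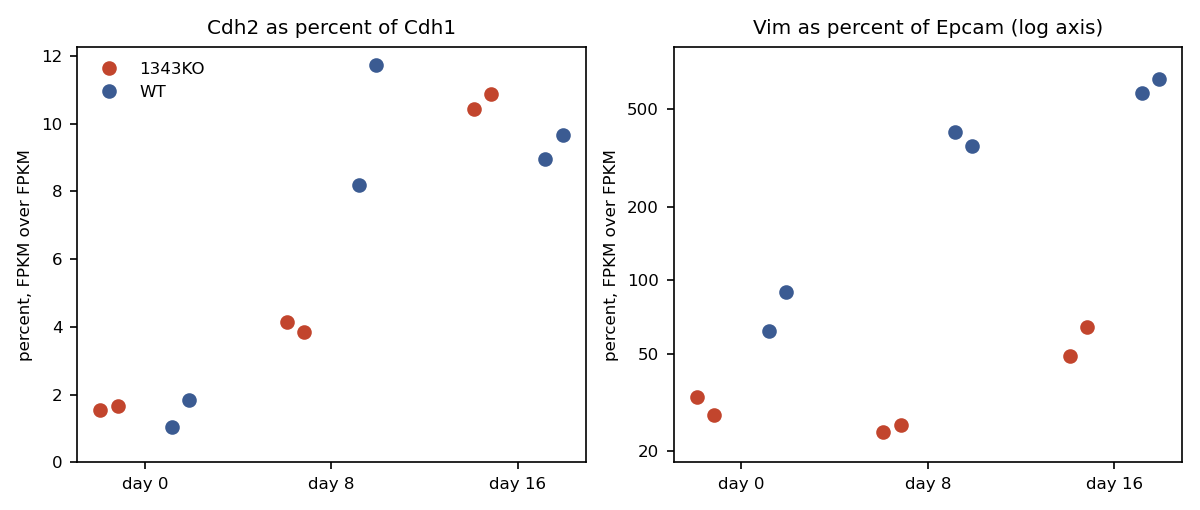
Left, Cdh2 as percent of Cdh1 (linear axis from 0), and right, Vim as percent of Epcam (log axis), by library at days 0, 8 and 16, with 1343KO in red to the left of WT in blue. The Cdh2 share reached at most 11.7%, and Vim exceeded Epcam only in the WT libraries of days 8 and 16.

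Vim (ENSMUSG00000026728, chromosome 2, 13573927 to 13582826, plus strand) encodes vimentin, the intermediate filament protein of mesenchymal cells. In 1343KO it was at 37.3 and 28.9 FPKM at day 0, 33.5 and 34.8 at day 8, and 61.8 and 74.7 at day 16. The WT values were 49.0 and 64.5 FPKM at day 0, 200.1 and 184 at day 8, and 354 and 385 at day 16. Both 1343KO libraries were below both WT libraries on each day, and the 1343KO libraries of day 16 lay on either side of the higher WT library of day 0. Vim rose in WT by 1.75 log2 by day 8 (SE 0.15, adjusted p = 1.32e-05) and by another 0.94 by day 16 (adjusted p = 0.00185). The day 8 change in 1343KO was 0.05 (adjusted p = 0.857), with overlapping libraries, and Vim then rose by 0.97 by day 16 (adjusted p = 0.0238). The changes of the lines differed by -1.70 in the first interval (SE 0.22, adjusted p = 0.000578) and by 0.03 in the second (SE 0.22, adjusted p = 0.946). Vim was lower in 1343KO by 0.76 log2 at day 0 (adjusted p = 0.0320), by 2.46 at day 8 (5.63-fold, adjusted p = 2.97e-06) and by 2.43 at day 16 (5.42-fold, adjusted p = 1.70e-06). The day 0 call ended in 6 alternatives, 4 of them with 1 library left out: without WT day 0 replicate 2 (adjusted p = 0.180), without 1343KO day 0 replicate 2 (0.165) and without either WT day 8 library (0.0528). Over all alternatives it ranged from 0.0198 to 0.279. The rise in 1343KO from day 8 to day 16 ended in 6 alternatives, among them those that left out any 1 of the 4 libraries compared (0.0825 to 0.153), and its adjusted p ran from 0.0170 to 0.262 over all.

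Fn1 (ENSMUSG00000026193, chromosome 1, 71585520 to 71653200, minus strand) encodes fibronectin, a matrix glycoprotein bound by integrins. In 1343KO it was at 60.8 and 64.1 FPKM at day 0, 109 and 116 at day 8, and 102 and 105 at day 16. WT libraries stood at 44.0 and 46.1 FPKM at day 0, 266 and 288 at day 8, and 428 and 448 at day 16. The order of the lines turned round: both 1343KO libraries were above both WT libraries at day 0 and below them at days 8 and 16. Fn1 was higher in 1343KO at day 0 by 0.46 log2 (SE 0.07, adjusted p = 0.00616) and lower by 1.29 at day 8 (2.46-fold, adjusted p = 8.79e-07) and by 2.07 at day 16 (4.23-fold, adjusted p = 3.89e-08). It rose in WT by 2.59 by day 8 (adjusted p = 8.97e-09) and by 0.66 more by day 16 (adjusted p = 0.000103). It rose in 1343KO by 0.84 by day 8 (adjusted p = 3.49e-05), and the later change was -0.12 (adjusted p = 0.525). The difference of changes was -1.75 for the first interval (SE 0.09, adjusted p = 4.85e-06) and -0.78 for the second (adjusted p = 0.000697). The day 0 call ended with only the day 0 libraries in the fit (adjusted p = 0.171, range 0.00343 to 0.171 over the alternatives).

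Snai2 (ENSMUSG00000022676, chromosome 16, 14705852 to 14709385, plus strand) encodes Slug, a zinc-finger repressor used in mesoderm and neural crest. In 1343KO it was at 0.948 and 0.444 FPKM at day 0, 1.71 and 1.59 at day 8, and 2.04 and 3.36 at day 16. WT libraries had 0.954 and 0.284 FPKM at day 0, 42.0 and 42.5 at day 8, and 23.9 and 25.8 at day 16. Of the 5 factors it spanned the widest range, and its day 8 values separated the lines further than those of any other member. All 4 day 0 libraries were below 1 FPKM, on about 3 to 13 fragments each, so the gene entered the test through the later days and its folds against day 0 are imprecise. The mean at day 8 was 1.65 ± 0.0875 FPKM in 1343KO and 42.3 ± 0.385 FPKM in WT (SD, n = 2 each), 25.6-fold lower in 1343KO (log2 difference -4.03, SE 0.25, adjusted p = 2.89e-06). At day 16 it was 9.18-fold lower in 1343KO (-2.82, adjusted p = 1.44e-05). It rose in WT by 4.77 log2 by day 8 (adjusted p = 5.40e-07), and the next interval gave -0.75 (adjusted p = 0.0543), which passed in 7 alternatives (adjusted p 0.0160 to 0.285 over all). In 1343KO the change by day 8 was 0.66 (adjusted p = 0.0908), and by day 16 the gene rose by 1.12 (adjusted p = 0.0103), a call that ended without 1343KO day 0 replicate 2 (adjusted p = 0.0688), without 1343KO day 16 replicate 2 (0.0738) and with only the libraries compared (0.0908), in a range of 0.00695 to 0.0908. The difference of changes was -4.11 from day 0 to day 8 (SE 0.36, adjusted p = 6.20e-05).

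Snai1 (ENSMUSG00000042821, chromosome 2, 167538195 to 167542814, plus strand), the Snail factor that directly represses Cdh1 and acts at gastrulation, was low in all groups. In 1343KO it was at 1.65 and 1.59 FPKM at day 0, 3.92 and 2.37 at day 8, and 4.36 and 4.14 at day 16. WT libraries had 3.35 and 2.22 FPKM at day 0, 5.55 and 3.54 at day 8, and 6.70 and 6.65 at day 16. The lines overlapped at day 8, and the WT libraries lay above the 1343KO libraries on the other days. The difference between the lines was -0.52 log2 at day 0 (SE 0.25, adjusted p = 0.335), -0.42 at day 8 (adjusted p = 0.205) and -0.55 at day 16 (adjusted p = 0.0920). Snai1 rose over the whole course in each line, by 1.00 in 1343KO (adjusted p = 0.0161) and by 1.04 in WT (adjusted p = 0.00514), and the changes differed by -0.03 with an SE of 0.35 (adjusted p = 0.954). Only about 11 to 66 fragments stood behind each value. The day 16 difference between the lines passed with median-of-ratios scaling (adjusted p = 0.0479), with TPM scaling (0.0488) and with only the libraries compared (0.0427), in a range of 0.0427 to 0.226. The rise in 1343KO ended when any 1 of the 4 libraries it rests on was left out, with adjusted p of 0.0576 to 0.0721 in those fits and 0.00928 to 0.0721 over all alternatives.

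Twist1 (ENSMUSG00000035799, chromosome 12, 33957671 to 33959829, plus strand) encodes a basic helix-loop-helix factor of head mesenchyme and mesoderm. In 1343KO it was at 2.15 and 3.73 FPKM at day 0, 3.99 and 2.79 at day 8, and 7.82 and 8.80 at day 16. The WT values were 2.76 and 3.31 FPKM at day 0, 7.99 and 8.99 at day 8, and 19.0 and 19.4 at day 16. The 1343KO libraries of day 16 stood where the WT libraries had stood at day 8. Twist1 was lower in 1343KO by 1.12 log2 at day 8 (SE 0.22, 2.50-fold, adjusted p = 0.00248) and by 1.12 at day 16 (2.31-fold, adjusted p = 0.00181), and the day 0 difference was -0.06 (adjusted p = 0.944). It rose in WT by 1.23 by day 8 (adjusted p = 0.00106) and by 1.09 more by day 16 (adjusted p = 0.00490). In 1343KO the day 8 change was 0.17 (adjusted p = 0.621), and the whole course brought a rise of 1.27 (adjusted p = 0.00258). The whole-course rise ended with only the libraries compared (adjusted p = 0.0684, range 0.00176 to 0.0684). The changes from day 8 to day 16 differed between the lines by 0.00 with an SE of 0.30 (adjusted p = 1), and those from day 0 to day 8 differed by -1.06 (adjusted p = 0.0290, range 0.00908 to 0.0917, above the threshold in 7 alternatives).

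Zeb1 (ENSMUSG00000024238, chromosome 18, 5591860 to 5775467, plus strand) and Zeb2 (ENSMUSG00000026872, chromosome 2, 44983632 to 45117395, minus strand) encode a pair of related zinc-finger repressors that bind E-boxes of epithelial genes. Zeb1 in 1343KO was at 4.53 and 2.48 FPKM at day 0, 2.07 and 2.0 at day 8, and 5.84 and 12.2 at day 16. WT libraries had 5.89 and 2.56 FPKM at day 0, 8.99 and 9.03 at day 8, and 13.2 and 12.3 at day 16. Zeb1 libraries agreed closely at day 8 in each line, and the 1343KO libraries of day 16 were far apart, with 1 of them at the WT level. The Zeb1 change in 1343KO from day 8 to day 16 was 1.65 log2 and did not pass (adjusted p = 0.0951). At day 8 Zeb1 was 4.44-fold lower in 1343KO (log2 difference -1.72, SE 0.37, adjusted p = 0.00468), and at day 16 the difference was -0.54 (adjusted p = 0.258). It rose in WT by 1.01 by day 8 (adjusted p = 0.0454), a call that ended in 10 of the alternatives, 7 of them with 1 library left out, with adjusted p up to 0.297 without WT day 0 replicate 2 and a lowest value of 0.0141. By day 16 the WT rise was 1.47 (adjusted p = 0.00676), and without the same WT day 0 library the adjusted p was 0.0564 (range 0.00289 to 0.0564). The whole-course change of 1.11 in 1343KO did not pass (adjusted p = 0.0535), although it passed in 4 alternatives (0.0264 to 0.303 over all). Without 1343KO day 16 replicate 1 it was 1.59 (adjusted p = 0.0264), and without 1343KO day 16 replicate 2 it was 0.64.

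Zeb2 in 1343KO was at 1.41 and 4.73 FPKM at day 0, 1.23 and 3.22 at day 8, and 2.75 and 3.98 at day 16. WT libraries gave 2.48 and 1.88 FPKM at day 0, 8.83 and 9.98 at day 8, and 12.8 and 12.9 at day 16. The 1343KO libraries of all 3 days overlapped, and both WT libraries lay above both 1343KO libraries at days 8 and 16. Zeb2 was 4.22-fold lower in 1343KO at day 8 (-1.76 log2, SE 0.40, adjusted p = 0.00654) and 3.81-fold lower at day 16 (-1.68, adjusted p = 0.00639). The day 8 call ended without 1343KO day 8 replicate 1 (adjusted p = 0.0519, range 0.00170 to 0.0519). It rose in WT by 1.71 by day 8 (adjusted p = 0.00595) and by 2.13 by day 16 (adjusted p = 0.00132), and the 1343KO changes of -0.28 and 0.22 did not pass (adjusted p = 0.683 and 0.743). The difference of whole-course changes was -1.91 (SE 0.57, adjusted p = 0.0253), which 7 alternatives took above the threshold (range 0.00382 to 0.0787). The antisense gene Zeb2os overlaps Zeb2, and whether counting used the strand is not given in the sources used here. Zeb2os was at 0 and 2.64 FPKM in 1343KO and 0.276 and 1.66 in WT at day 8, and at 0 in both 1343KO libraries and 3.34 and 4.23 in WT at day 16.

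**Figure D3:**
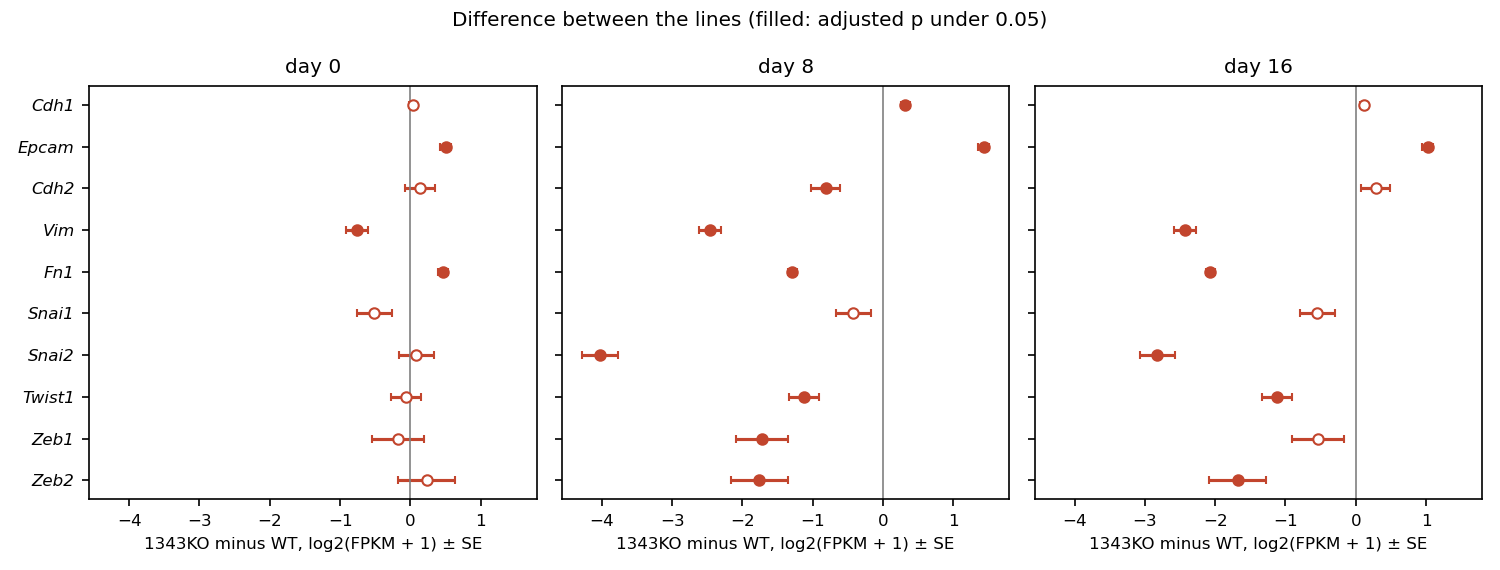
Difference between 1343KO and WT in log2(FPKM + 1) for the 10 genes at days 0, 8 and 16, with bars of 1 SE and filled points for an adjusted p under 0.05. At day 8 Cdh1 and Epcam lie to the right of 0 and the other 8 genes to the left, from -0.42 for Snai1 to -4.03 for Snai2.

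In WT, 9 of the 10 genes passed at day 8 against day 0, 2 lower than at day 0 (Cdh1 and Epcam) and 7 higher (all the others but Snai1), where 51.3% of all genes passed, 26.8% higher and 24.5% lower. At day 16 against day 0 all 10 passed, 2 lower and 8 higher, where 61.2% of all genes passed, 32.7% higher and 28.5% lower. Between day 8 and day 16 Vim, Fn1 and Twist1 passed, all higher at day 16, where 27.6% of all genes passed, 14.1% higher and 13.5% lower. That count, 3 of 10, is close to the share of all genes. The 2 epithelial members changed little in size beside the others: Epcam was lower at day 16 by 0.35 log2 and Cdh1 by 0.28, against rises of 1.04 (Snai1) to 4.03 (Snai2).

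In the 1343KO line 3 of the 10 genes passed by day 8 and 7 by day 16. Day 8 against day 0 gave Epcam, Cdh2 and Fn1, all higher, where 23.5% of all genes passed, 15.0% higher and 8.51% lower. The day 8 count is thus close to the share of all genes. Day 16 against day 8 gave 2, Cdh2 and Vim, both higher, where 0.804% of all genes passed, 0.602% higher and 0.203% lower. Day 16 against day 0 gave 7, with Cdh1 lower and Cdh2, Vim, Fn1, Snai1, Snai2 and Twist1 higher, where 26.8% of all genes passed, 18.2% higher and 8.60% lower. The sizes differed from gene to gene: the rise of Cdh2 by day 16 was 5.78-fold in 1343KO and 5.30-fold in WT, whereas Fn1 was 1.66-fold above day 0 in 1343KO and 9.72-fold in WT.

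The difference of changes itself, 1343KO minus WT, passed for 8 of the 10 genes between day 0 and day 8, where 28.3% of all genes passed, 15.6% positive and 12.7% negative. Cdh1 and Epcam were on the positive side and Cdh2, Vim, Fn1, Snai2, Twist1 and Zeb2 on the negative side. For Zeb1 the value of -1.55 (SE 0.53, limma adjusted p = 0.0550) did not pass, although it passed in some alternatives, among them median-of-ratios scaling (0.0496) and TPM scaling (0.0394). Between day 8 and day 16 the difference of changes passed for 4 genes, positive for Cdh2 and Snai2 and negative for Epcam and Fn1, where 16.7% of all genes passed, 8.50% positive and 8.20% negative. Over the whole course it passed for 6, positive for Epcam and negative for Vim, Fn1, Snai2, Twist1 and Zeb2, where 40.0% of all genes passed, 21.7% positive and 18.2% negative. The Cdh1 difference in the first interval ended in 10 alternatives (adjusted p 0.0328 to 0.445), and in the second the Snai2 difference ended in 11 (0.0266 to 0.216) and the Epcam difference in 7 (0.0192 to 0.110). The Zeb2 difference in the first interval ended in 8 (0.00559 to 0.0907), and its value was -1.37 without 1343KO day 0 replicate 2. The whole-course Twist1 difference ended in 5, each with 1 library left out (0.00580 to 0.0648). These comparisons share libraries with those above and are not further evidence for them. The 1343KO changes from day 0 to day 16 lost calls with single libraries left out: between 4 and 7 genes passed, against the 7 with all libraries, and 4 passed without 1343KO day 16 replicate 2. The 2 calls between day 8 and day 16 in 1343KO became 0 in the limma fits without any 1 of the 4 libraries compared, where 4 to 6 genes had an unadjusted p under 0.05.

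**Figure D4:**
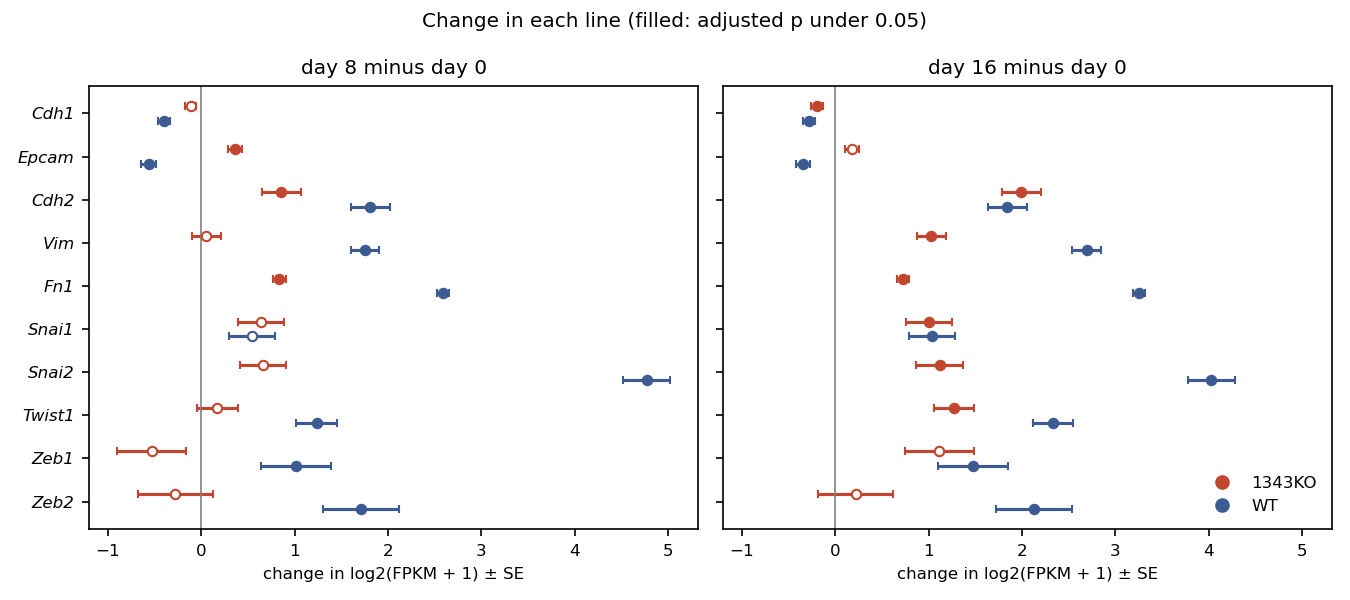
Change in log2(FPKM + 1) from day 0 to day 8 (left) and from day 0 to day 16 (right) for the 10 genes, with 1343KO in red above WT in blue, bars of 1 SE and filled points for an adjusted p under 0.05. At day 8 Epcam lies to the right of 0 in 1343KO and to the left in WT, and at day 16 the points of Cdh2 and Snai1 nearly coincide between the lines while those of Snai2, Vim, Fn1 and Zeb2 do not.

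The order of the levels changed with the line. At day 0 the 4 highest members in each line were Epcam, Cdh1, Fn1 and Vim, and the other 6 stood below 6 FPKM in every library. At days 8 and 16 the WT order was Fn1, Vim, Cdh1, Epcam and Snai2, and each of these neighbours was separated from the next in all libraries. In 1343KO the order at both days was Epcam, Fn1, Cdh1 and Vim, again without overlap between neighbours, and Snai2 was the lowest of the 10 by its mean. Among the low members of 1343KO at day 16, Cdh2, Zeb1 and Twist1 had means of 9.53, 9.01 and 8.31 FPKM, and the Zeb1 libraries spanned the values of the other two.

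Over the 12 libraries, the log2 level of Cdh1 had its strongest relation among the members with Snai2 (Pearson r = -0.95), and its relation with Epcam was 0.67. Snai2 ran with Fn1 (0.93) and Vim (0.90), and Vim with Twist1 (0.90). Cdh2 had 0.82 with Twist1, 0.77 with Fn1 and -0.79 with Cdh1, and -0.22 with Epcam. These coefficients are descriptions over 6 groups of 2 libraries, and the libraries of a group share their line and day. In the whole table the genes whose pattern was most like Cdh1 were Adam23, Hprt, Tcea3, Jam2 and Hsd17b14 (r = 0.972 to 0.978), and those most like Cdh2 were Specc1l, Actc1, Vstm2b, Zfp608 and Sox11 (r = 0.960 to 0.968). Adam23, for example, was at 21.8 and 25.3 FPKM in 1343KO and 4.16 and 5.41 in WT at day 8.

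The other genes of the pathway were read from 11 lists with 185 entries, of which 166 were tested. The counts stand against all genes tested, of which 23.3% were higher and 19.6% lower in 1343KO at day 8 (median 0.06 log2), and 28.5% higher and 24.1% lower at day 16 (median 0.07). At day 8 the list of 33 mesenchymal products had 22 lower and 5 higher in 1343KO, with a median difference of -1.34 log2, and at day 16 it had 27 lower and 1 higher, with a median of -2.55. Col1a1, a chain of type I collagen, was at 5.81 and 5.76 FPKM in 1343KO and 937 and 1018 in WT at day 16 (log2 difference -7.17, SE 0.15, adjusted p = 4.80e-09). Sparc, a matrix-binding glycoprotein, was at 178 and 172 FPKM in 1343KO and 1165 and 1161 in WT (-2.72, adjusted p = 3.43e-09). All 8 fibroblast markers whose sums are given above are also in this list, and their part in its count was not tested. At day 0 the same list had 6 higher and 2 lower in 1343KO, with a median of 0.02, where 1.59% of all genes were higher and 2.12% lower. Acta2, smooth muscle actin, was among the higher ones, at 6.97 and 6.70 FPKM in 1343KO and 1.71 and 2.14 in WT (1.42, adjusted p = 0.000140), where 5 smooth muscle markers, Acta2 among them, summed to 41.0 to 43.9 FPKM in 1343KO and 15.4 to 19.1 in WT.

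Genes of fibronectin's receptors and of adhesion were counted next. Of 15 such genes, 12 were lower in 1343KO at day 16 (median -0.93), where 24.1% of all genes were lower, and 9 were lower and 2 higher at day 8 (median -0.80), where 19.6% were lower. Itgb1, a beta chain shared by several fibronectin-binding integrins, was at 64.3 and 60.5 FPKM in 1343KO and 88.6 and 91.9 in WT at day 0, and at 79.0 and 74.3 in 1343KO and 237 and 225.5 in WT at day 8. At day 16 it was at 81.3 in both 1343KO libraries and at 255 and 249.8 in the WT libraries. It was lower in 1343KO by 0.53 log2 at day 0 (adjusted p = 0.00225), by 1.58 at day 8 (adjusted p = 2.07e-07) and by 1.62 at day 16 (adjusted p = 7.98e-08). Itga4, an alpha chain that binds fibronectin, was lower by 2.06 at day 8 (adjusted p = 2.11e-05) and by 2.88 at day 16 (adjusted p = 1.40e-06).

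Of 14 other factors of the transition tested, 8 were lower and 2 higher at day 8 (median -1.05), and 9 were lower and 3 higher at day 16 (median -0.72). Hmga2, a chromatin protein that raises Snail and Twist genes in the response to TGF-beta, was at 18.2 and 14.8 FPKM in 1343KO and 122 and 113 in WT at day 8 (-2.77, adjusted p = 1.90e-07). Twist2, the close relative of Twist1, was at 1.03 and 0.758 FPKM in 1343KO and 9.92 and 9.91 in WT at day 8 (-2.53, adjusted p = 3.38e-05). In the TGF-beta pathway, an inducer of the transition, 8 of 15 genes were lower and 2 higher at day 8 (19.6% and 23.3% of all genes), and 9 were lower and 3 higher at day 16 (24.1% and 28.5% of all genes). Tgfb1, a ligand, was at 3.15 and 4.90 FPKM in 1343KO and 28.7 and 26.8 in WT at day 8 (-2.54, adjusted p = 7.06e-06). Of 8 drivers of gastrulation 4 were at levels that allowed a test: 2 were higher and 1 (Wnt3) lower at day 8, and 3 were higher at day 16. T, the Brachyury factor of the primitive streak, was at 4.67 and 5.94 FPKM in 1343KO and 1.00 and 1.35 in WT at day 8 (1.53, adjusted p = 0.000259). At day 16 it was at 7.31 and 7.08 FPKM in 1343KO and 0.0813 and 0.235 in WT (2.83, adjusted p = 3.38e-06).

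Epithelial genes beyond Cdh1 and Epcam did not share one direction. Of 34 junction and polarity genes, 10 were higher in 1343KO at day 0, where 1.59% of all genes were higher. At day 8, 16 were lower and 8 higher (median -0.37), and at day 16, 20 were lower and 6 higher (median -0.65), or 3 higher with either other scaling. In WT itself 27 of the 34 rose by day 16 and 2 fell (median 1.28), where 32.7% of all genes rose and 28.5% fell. In 1343KO 20 rose and 1 fell (median 0.55), where 18.2% of all genes rose and 8.60% fell. Cdh1 was lower than at day 0 in both lines, though in 1343KO its call (limma adjusted p = 0.0431) ended in most alternatives, as given above. Krt18, a keratin of simple epithelia, was at 160 and 179 FPKM in 1343KO and 292 and 309 in WT at day 16 (-0.82, adjusted p = 5.40e-05). Dsp, which links keratins to desmosomes, was at 13.8 and 15.0 FPKM in 1343KO and 38.7 and 40.7 in WT at day 8 (-1.41, adjusted p = 1.05e-05). The extraembryonic endoderm, whose markers are given above, is itself an epithelium that makes keratins, and its part in these values was not tested.

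Of 13 regulators of the epithelial state, 8 were higher and 2 lower in 1343KO at day 8 (median 1.27), and the list was split at day 16, with 6 higher and 5 lower. Tfap2c was at 41.3 and 38.3 FPKM in 1343KO and 3.98 and 3.63 in WT at day 8 (3.09, adjusted p = 8.01e-07), and Klf5 at 24.6 and 22.6 FPKM in 1343KO and 6.83 and 6.58 in WT (1.67, adjusted p = 1.78e-06). Klf4 of this list is also an ES cell marker, Foxa2 an endoderm marker and Tfap2c a trophoblast marker. The Tfap2c values at day 8 are part of the trophoblast sums of 67.9 to 69.6 FPKM in 1343KO and 185.5 to 194 in WT, and go in the opposite direction. A list of 12 corepressors and regulators of Snail and Zeb factors had 8 genes higher in 1343KO at day 8 and 9 at day 16, with 1 lower on each day. It includes Btrc and Gsk3b, which mark Snail for degradation, and Btrc was among the higher genes on both days. Ctbp2, a corepressor recruited by Zeb proteins, was at 66.9 and 75.3 FPKM in 1343KO and 22.9 and 25.2 in WT at day 8 (1.53, adjusted p = 2.72e-06), opposite in direction to Zeb1 and Zeb2 on that day. Among 10 catenins and nectins, the partners of cadherins, 2 were lower at day 8, close to the 19.6% of all genes. At day 16 5 of the 10 passed, 4 higher and 1 lower, close to the 52.6% of all genes that passed, and the day 16 median of 0.04 became -0.10 under TPM scaling or -0.11 under that by median of ratios, each with 2 higher and 3 lower. Of 7 other cadherins tested, 5 were lower and 1 higher at day 16, with a median of -1.07. Of these 7, 4 lie on chromosome 8, and the median of the 3 others was 0.60, although the 5 lower genes include at least 1 of another chromosome. At day 16 the median of chromosome 8 was 0.06 and that of other chromosomes 0.40, over genes averaging 20 FPKM or more. The part of the chromosome in these cadherin values was not tested. Cdh11, a cadherin of mesenchyme on that chromosome, was at 4.01 and 4.22 FPKM in 1343KO and 60.2 and 57.8 in WT at day 16 (-3.55, adjusted p = 3.05e-05). Of 9 other intermediate filament genes, 4 were higher and 2 lower at day 8 (2 higher with TPM scaling), where 42.8% of all genes passed, and the 3 that passed at day 16, 2 higher and 1 lower, were a smaller share than the 52.6% of all genes. Lmna, the nuclear lamin A/C gene, was lower in 1343KO as Vim was, at 7.50 and 8.06 FPKM in 1343KO and 29.5 and 32.1 in WT at day 16 (-1.86, adjusted p = 4.41e-06).

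**Figure D5:**
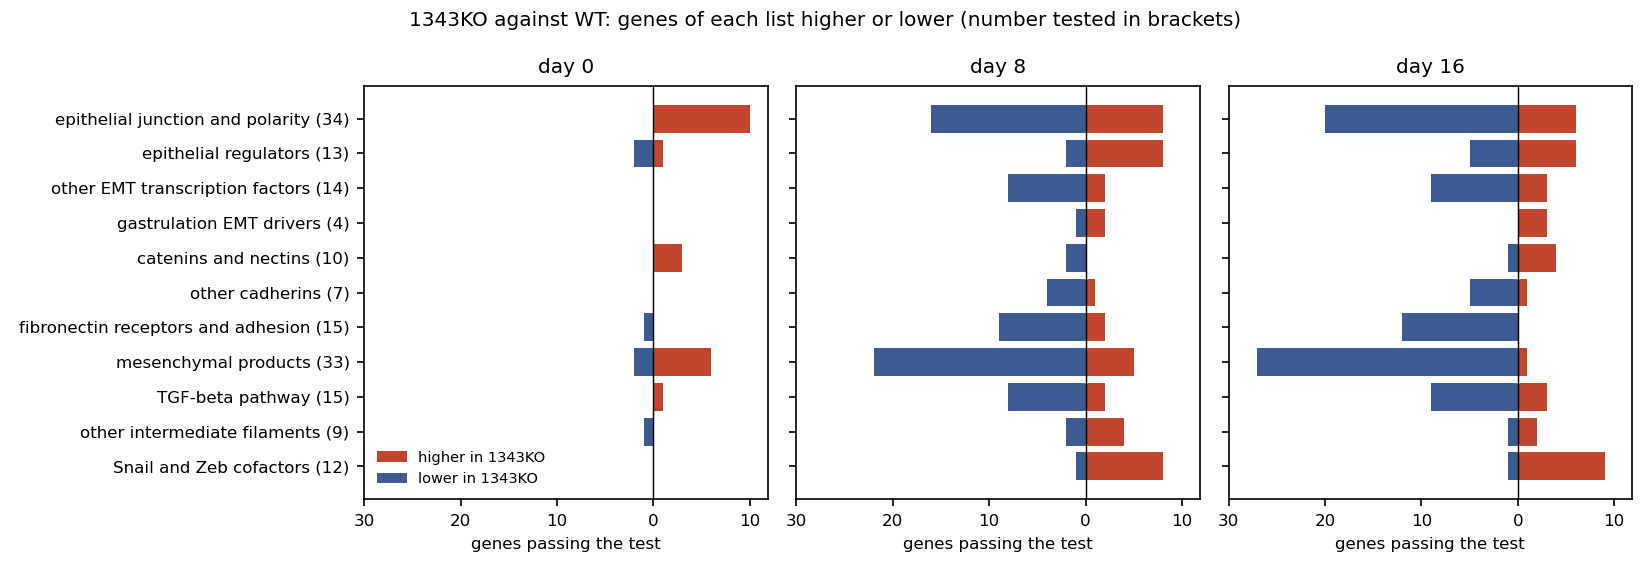
Number of genes in each of the 11 lists that passed the test between the lines at days 0, 8 and 16, drawn to the right where higher in 1343KO (red) and to the left where lower (blue), with the number tested in brackets. The mesenchymal products have the longest bars to the left, with 22 genes at day 8 and 27 at day 16, and the junction list changes from 10 genes on the right at day 0 to 20 on the left at day 16.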

How the data were processed

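Per the labels, NEBNext Ultra II libraries of poly(A) RNA were sequenced on an Illumina platform. The authors deposited a table of FPKM, 1 value for each gene and library. Cufflinks 2.1.1 and the GRCm38 build are named in the submitters' processing notes, and which aligner, annotation and strand setting were used is not given in the sources used here. Of the identifiers, 99.9% matched GENCODE M21, and for 98.7% of those the start in the file was 1 below the annotation and the end was equal, so coordinates are given as in the annotation, counted from 1. Overlapping genes share an estimated split of fragments.

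Groups come from the title, genotype and time labels. With limma 3.58.1 in R 4.3.3, log2(FPKM + 1) was fitted with 1 mean for each of 6 groups over all 12 libraries, with 6 residual degrees of freedom and a trend in the empirical Bayes variance. Genes that reached 1 FPKM in 2 or more libraries entered 12 two-sided contrasts, with Benjamini-Hochberg adjustment within each contrast. The fit was tested on simulated data for the contrast between the lines at day 0 only. Depth was estimated from low genes whose FPKM were whole multiples of a smallest step, within 5% for 86.0% to 88.7% of values, assuming a 200 nt fragment and transcripts of at least 1500 nt. This depth is approximate, and counts were not modelled.

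The members and lists were chosen with earlier results of these data known. All 10 members are named whatever their p. Of each list at most 4 genes may be named, those with the smallest p among the ones that passed. Some genes, such as Btrc and Gsk3b, are named outside this rule to show what a list holds, an overlap of lists or an opposite direction. The 5 genes most like Cdh1 and Cdh2 were found by Pearson correlation of log2 levels, leaving out unnamed gene models. The alternatives changed the pseudocount to 0.1, dropped the filter or set it at a mean of 5 FPKM, and used 2 other scalings, the replicate number as a block, robust variance, only the libraries compared, no genes of chromosomes 8 and Y, or 1 library fewer. Summed levels of 12 marker lists of cell types are given for days 8 and 16, and for day 0 where named. Python 3.11.15 with pandas 2.3.3 and matplotlib 3.10.9 made the summaries and figures.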

Additional observations from a re-analysis of the deposited data

Results flagged for a closer look

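The genes below are those whose change over time differed between the lines in an interval, by the test of the difference itself in limma. Of all genes tested, 28.3% passed this test from day 0 to day 8, 16.7% from day 8 to day 16 and 40.0% from day 0 to day 16. An adjusted p already in the report is not repeated. From day 0 to day 8 the difference of log2 changes, 1343KO minus WT, was 0.28 for Cdh1 (adjusted p = 0.0403), 0.93 for Epcam, -0.95 for Cdh2, -1.70 for Vim, -1.75 for Fn1, -4.11 for Snai2, -1.06 for Twist1 and -1.99 for Zeb2 (adjusted p = 0.0290). From day 8 to day 16 it was -0.41 for Epcam (adjusted p = 0.0336), 1.10 for Cdh2, -0.78 for Fn1 and 1.20 for Snai2 (adjusted p = 0.0476). From day 0 to day 16 it was 0.52 for Epcam (adjusted p = 0.00461), -1.67 for Vim (adjusted p = 0.000327), -2.53 for Fn1 (adjusted p = 2.87e-07), -2.91 for Snai2 (adjusted p = 0.000223), -1.06 for Twist1 (adjusted p = 0.0212) and -1.91 for Zeb2. The 3 intervals share libraries, so these are not independent of one another.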

How the results depend on the processing

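Of 2496 tests of single genes under the 21 alternatives, 2275 kept their direction and their side of the threshold, 151 lost a call, 27 gained one and none of the called ones reversed, while 43 differed in sign but passed in neither fit. With only the libraries of the groups compared, limma passed 0 members between the lines at day 0 (3 had an unadjusted p under 0.05, against 3 passed with all libraries), 1 for 1343KO at day 8 against day 0 (against 3), 0 at day 16 against day 8 (5 unadjusted, against 2), 4 at day 16 against day 0 (against 7), and 5 for the difference of changes from day 0 to day 8 (against 8). Without the filter the counts were 0 for 1343KO at day 16 against day 8 (5 unadjusted), 5 for the difference of changes to day 8, and 2 from day 8 to day 16 (against 4). With a pseudocount of 0.1 the last was also 2. The 1343KO count at day 16 against day 8 was 1 with that pseudocount, with median-of-ratios scaling and without chromosomes 8 and Y. How many of all genes passed under each alternative is not given here. These counts and those below therefore cannot tell a loss of calls among the members from a loss among all genes.

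Leaving out 1 library at a time gave these ranges of members passed. Between the lines the day 0 range was 1 to 3, the day 8 range 8 to 9, and the day 16 count 6 throughout. In WT they were 8 to 9 at day 8 and 9 to 10 at day 16 against day 0, and 3 to 4 at day 16 against day 8. In 1343KO they were 1 to 3, 4 to 7 and 0 to 2 for the same comparisons. For the difference of changes they were 4 to 8 to day 8, 4 to 6 to day 16 and 1 to 4 between them. With the replicate number as a block, 1 member passed for 1343KO at day 16 against day 8, and the other counts stayed within 1.5 times. Samples of equal replicate number shared no deviation across genes, since deviations from group means correlated between -0.036 and 0.036 over 15 pairs of groups. Whether samples of equal number were grown or prepared together cannot be told from this, and the labels do not say. Scaling moved the median of all genes by over 0.1 log2 in 4 comparisons, among them the lines at day 8 (-0.08 with TPM scaling, against 0.06), where the share of higher calls was 40.6% against 54.3%. Depth limits the low genes most, with about 11 to 66 fragments for Snai1, 19 to 193 for Twist1 and 3 to 13 for Snai2 at day 0. The cause of the lost calls was not tested.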
